A study of Mus musculus with 4 samples.

Results

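The zinc finger protein ZFP57 acts on imprinted loci together with a set of silencing factors, and the genes of 9 of these factors were followed here in day 12 neural precursor cells with and without *Zfp57*. The genes were *Zfp445*, *Trim28*, *Setdb1*, *Cbx5*, *Cbx1*, *Cbx3*, *Daxx*, *Hells* and *Smchd1*. They were taken by symbol as members of the KAP1 complex, the heterochromatin protein 1 (HP1) family and the group of genes needed to keep imprints, and the rule used no measured value. They make up 9 of the 55602 genes in the table of all reads, in which 19995 genes were tested, and 9 of the 10977 autosomal genes tested for allelic expression. RNA was sequenced from 2 wild-type and 2 *Zfp57*-/- libraries, described by the submitters as biological duplicates. Both genotypes were JB1 cells, male F1 hybrid embryonic stem cells from a JF1 mother and a C57BL/6 (B6) father, so that maternal reads carry JF1 and paternal reads carry B6 variants. The stem cells were grown in 1i medium with 3 µM of the Gsk3 inhibitor CHIR99021, then plated in a defined medium in which 1 µM cyclopamine, an inhibitor of sonic hedgehog signalling, was present from day 2 to day 10, and were harvested at day 12. The *Zfp57*-/- cells were a single line derived from JB1, so that an effect of the genotype cannot be told apart from a difference between these lines, and *Zfp57* was already inactive before differentiation.

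As background, a KRAB zinc finger protein binds DNA through its fingers and binds the corepressor KAP1, the product of *Trim28*, through its KRAB domain. KAP1 in turn brings in SETDB1, which methylates lysine 9 of histone H3, and the HP1 proteins, which bind that mark through their chromodomain. DAXX deposits the histone variant H3.3 at such sites, while HELLS remodels nucleosomes so that DNA methylation can be maintained, and SMCHD1 acts at silent regions that include imprinted clusters and the inactive X chromosome.

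The promoters of the genes that rose in *Zfp57*-/- cells are shown because ZFP57 recognises a methylated hexamer, TGCCGC or GGCCGC, and these letters can be looked for. The sequences are those of RefSeq on GRCm38.p6, plus strand, from 250 bases before the annotated start up to that start or to the first GENCODE exon of the gene, whichever came first, and capitals mark a TGCCGC or GGCCGC hexamer on either strand. They lie at chr7:13023902-13024151 (*Trim28*), chr17:33909195-33909413 (*Daxx*) and chr19:38930740-38930914 (*Hells*).
Trim28: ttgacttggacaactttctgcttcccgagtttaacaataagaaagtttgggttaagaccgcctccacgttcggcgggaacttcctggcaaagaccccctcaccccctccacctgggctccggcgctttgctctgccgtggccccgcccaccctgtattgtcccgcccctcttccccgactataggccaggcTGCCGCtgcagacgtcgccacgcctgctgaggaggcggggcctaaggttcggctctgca
Daxx: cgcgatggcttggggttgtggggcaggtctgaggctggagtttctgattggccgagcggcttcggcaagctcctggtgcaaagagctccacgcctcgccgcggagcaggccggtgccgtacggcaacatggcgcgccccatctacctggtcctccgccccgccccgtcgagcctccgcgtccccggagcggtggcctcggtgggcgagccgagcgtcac
Hells: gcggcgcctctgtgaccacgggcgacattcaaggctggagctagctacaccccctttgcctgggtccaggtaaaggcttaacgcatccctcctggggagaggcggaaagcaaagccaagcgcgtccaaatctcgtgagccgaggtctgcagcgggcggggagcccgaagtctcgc
The *Trim28* stretch held 1 TGCCGC, starting 59 bases before the annotated start, and the stretches of *Daxx* and *Hells* held neither hexamer. The *Trim28* stretch lies inside the GENCODE gene model, which has an earlier start. Of the windows of 250 bases that were cut, the last 31 (*Daxx*) and 75 (*Hells*) bases, from the first exon on, are not shown, and each of the 3 uncut *Daxx* windows held GGCCGC 1 or 2 times. The hexamer TGCCGC occurred in 8.68% of all 32851 RefSeq promoter windows of 250 bases and GGCCGC in 16.1%. Among the 13 windows of the 9 genes, TGCCGC occurred in 1 and GGCCGC in 6, but these 6 belong to 3 genes, *Daxx* with 3 windows that overlap each other, *Cbx3* with 2 and *Smchd1* with 1. No binding or methylation data were analysed here, and a match is a description of the sequence.

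The libraries held 7663520 to 10337082 assigned fragments, and 2837013 to 3826604 fragments assigned to an allele. Counts of the wild-type replicates differed from each other by more than those of the *Zfp57*-/- replicates, with a chi-square per degree of freedom of 35.0 against 7.01, and p-values measure the spread between these libraries only. By edgeR's quasi-likelihood test with Benjamini-Hochberg adjustment at 0.05, 27.6% of the genes tested differed between genotypes, and 47.2% of these were higher in *Zfp57*-/- cells. With *Actb* as the scale the median log2 change of all genes moved from -0.01 to -0.68 and 486 of the 3480 genes called were higher. The label of neural precursors was checked against marker genes. Of 6 neural progenitor markers 5 were lower in *Zfp57*-/- cells (summed level 1454 and 1665 in wild-type against 938 and 903 CPM, counts scaled to the library total), with *Nes*, *Pax6*, *Sox1*, *Hes5* and *Fabp7* called and *Vim* not. Of 6 neuron markers 5 were lower (1428 and 1772 against 198 and 151 CPM), while *Stmn2* did not pass (log2 change -0.56, adjusted p = 0.144, edgeR). Of 9 pluripotency markers 8 were higher (69.7 and 146 against 1367 and 1200 CPM), with *Klf4* as the exception. *Nanog* had 0 counts in both wild-type libraries and 903 and 938 in the *Zfp57*-/- libraries, at least 259-fold higher against a floor of 3 counts per library, and *Tdgf1* and *Utf1* were at 0 in wild-type replicate 1. None of 5 endoderm markers passed edgeR's test (219 and 474 against 416 and 552 CPM; 1, *Afp*, had an unadjusted p under 0.05 and 0 passed DESeq2), and of 4 endothelial markers *Pecam1* and *Tek* were higher and *Kdr* lower (94.7 and 114 against 106 and 123 CPM). Of 7 proliferation markers 4 were higher, with *Mcm2*, *Mcm5*, *Ccnb1* and *Cdk1* rising while *Mki67*, *Top2a* and *Pcna* did not pass, and the summed level was 1930 and 2162 against 2143 and 2044 CPM. The *Zfp57*-/- cells at day 12 thus carried less neural and more stem cell RNA than their controls. The part of these markers in the results below was not tested, and in bulk RNA fewer cells of a type and less RNA per cell cannot be told apart.

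The inactivated gene itself still gave reads. *Zfp57* (chromosome 17, 37001163 to 37010635) had counts of 392 and 249 in wild-type, and of 158 and 144 in *Zfp57*-/- cells, a log2 change of -1.19 ± 0.323 (SE; adjusted p = 0.0225, edgeR). The groups did not overlap, but wild-type replicate 1 held 2.04 times the normalised count of replicate 2. The alleles separated the genotypes more sharply. The maternal share of its allelic reads was 0.627 and 0.669 in wild-type cells, and 0 of 82 and 0 of 76 reads were maternal in the *Zfp57*-/- replicates, which over both allows a share of up to 0.0190. Paternal reads numbered 81 and 49 in wild-type, and 82 and 76 in *Zfp57*-/- libraries, and their normalised counts (94.4 and 44.0 against 82.8 and 73.1) overlapped, with a log2 change of 0.19 ± 0.393 that did not pass (SE; adjusted p = 0.749, edgeR).

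Of the 9 genes, 3 were more abundant in *Zfp57*-/- cells, 0 were less abundant and 6 did not pass the test. The genes that rose were *Trim28*, *Hells* and *Daxx*, each by a little under 1 on the log2 scale. Over all genes tested 27.6% were called, 2607 as higher and 2915 as lower, so the share of the 9 genes called was close to that of all genes. At an unadjusted p under 0.05 and with DESeq2 the same 3 genes were higher and 0 lower. The median log2 change of the 9 genes was 0.21, against -0.01 over all genes tested. Normalised counts of the genotypes did not overlap for 8 of the 9 genes, which was also the case for 66.3% of all genes, and 5 of these 8 did not pass the test. The plot of normalised counts by library shows the 9 genes in the order of their roles.

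**Figure D1:**
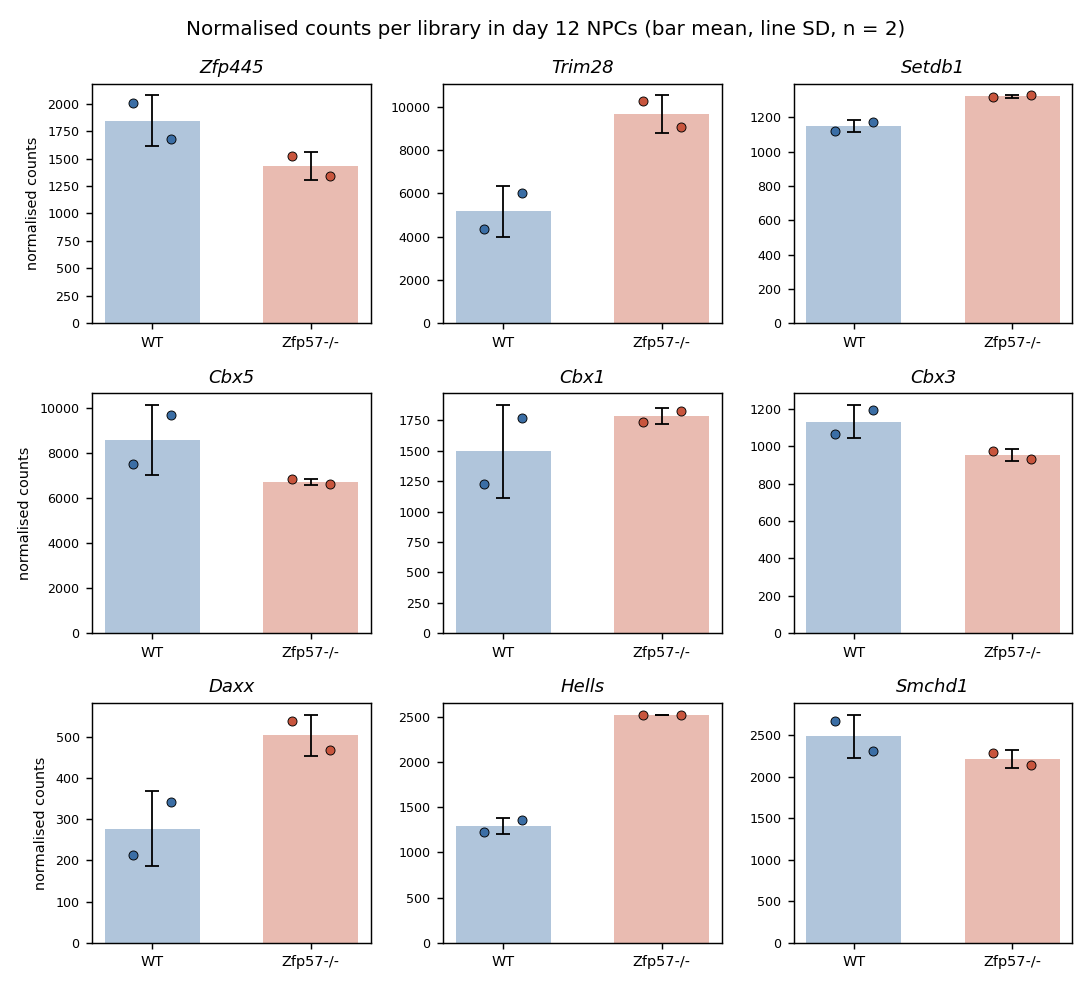
Normalised counts of each gene (vertical axes, starting at 0) for both genotypes; points are the 2 libraries of a genotype, bars their mean and lines the SD. *Trim28*, *Daxx* and *Hells* sit higher in both *Zfp57*-/- libraries, and the *Cbx1* points of the genotypes overlap.

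*Zfp445* encodes a second KRAB zinc finger protein that takes part in keeping imprints. It lies on chromosome 9 (122844529 to 122866006, minus strand) and had counts of 1724 and 1868 in wild-type, and of 1504 and 1392 in *Zfp57*-/- libraries. After normalisation these were 2009 and 1679 against 1520 and 1339, so both *Zfp57*-/- libraries lay below both wild-type libraries. The log2 change of -0.37 ± 0.195 (SE) did not pass (adjusted p = 0.193, edgeR). It was -0.49 without wild-type replicate 2 and -0.26 without wild-type replicate 1. The level of *Zfp445* per exon length relative to that of *Zfp57* was 2.25 and 3.83 in the wild-type and 4.86 and 4.94 in *Zfp57*-/- cells, where the *Zfp57* reads were paternal. The same-strand gene model Gm47140, which overlaps *Zfp445*, had at most 15 counts in a library.

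*Trim28* encodes KAP1, the corepressor to which the KRAB domains of ZFP57 and ZFP445 bind. Its gene model on chromosome 7 (12999114 to 13031035, plus strand) had counts of 3717 and 6670 in wild-type, and of 10175 and 9404 in *Zfp57*-/- libraries, or 5163 ± 1175 and 9664 ± 871 normalised counts (mean ± SD, n = 2). Both *Zfp57*-/- libraries lay above both wild-type libraries, which themselves differed by 1.38 times. The log2 change was 0.90 ± 0.218 (SE; adjusted p = 0.0128, edgeR), a rise of 1.87-fold. Without *Zfp57*-/- replicate 1 or replicate 2 the change was 0.82 and 1.00 and did not pass (adjusted p = 0.163 and 0.0645), and with *Actb* as the scale it was 0.30 (adjusted p = 0.758), or 0.98 above the median of all genes. Summed pluripotency markers were higher in the same libraries.

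*Setdb1* encodes the histone methyltransferase that KAP1 recruits. The gene, on chromosome 3 (95323525 to 95357202, minus strand), had counts of 964 and 1305 in wild-type, and of 1305 and 1381 in *Zfp57*-/- libraries. Normalised counts of 1124 and 1173 against 1318 and 1329 did not overlap and were tight within each genotype, but the difference was small. The log2 change was 0.21 ± 0.182 (SE; adjusted p = 0.441, edgeR) and became -0.47 with *Actb* as the scale, or 0.21 above the median of all genes. The corepressor gene thus rose without a detected change of the methyltransferase gene, and the ratio of *Trim28* to *Setdb1* in TPM (counts divided by exon length and scaled to the same total in each library) was 6.35 and 8.42 in the wild-type and 12.9 and 11.2 in *Zfp57*-/- cells. Both *Zfp57*-/- ratios lay above both wild-type ratios, with an exact two-sided permutation p of 0.333, the smallest that 2 against 2 libraries allow.

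The 3 HP1 genes encode the readers of methylated H3K9. *Cbx5* (HP1α; chromosome 15, 103191544 to 103239816, minus strand) had counts of 6440 and 10796 in wild-type, and of 6765 and 6910 in *Zfp57*-/- libraries. After normalisation (7506 and 9701 against 6835 and 6648) the *Zfp57*-/- libraries lay below the wild-type ones. The log2 change of -0.35 ± 0.202 (SE) did not pass (adjusted p = 0.228, edgeR). It was -0.55 without wild-type replicate 1 and -0.16 without wild-type replicate 2. With a correction for gene length it was -0.19 (adjusted p = 0.533, edgeR). *Cbx1* (HP1β; chromosome 11, 96789127 to 96808640, plus strand) had 1051 and 1965 against 1719 and 1901 counts, and its normalised counts overlapped between genotypes, with 1225 and 1766 in the wild-type and 1737 and 1829 in *Zfp57*-/- cells. It was the single gene of the 9 with such an overlap. Its log2 change was 0.25 ± 0.217 (SE; adjusted p = 0.425, edgeR), with 0.54 without wild-type replicate 2 and -0.013 without wild-type replicate 1. With *Actb* as the scale the change of *Cbx1* was -0.35, or 0.33 above the median of all genes. *Cbx3* (HP1γ; chromosome 6, 51470360 to 51483704, plus strand) had 917 and 1331 against 966 and 967 counts. The *Zfp57*-/- libraries were lower after normalisation (1069 and 1196 against 976 and 930), with a log2 change of -0.25 ± 0.186 (SE; adjusted p = 0.353, edgeR). The change was -0.35 without wild-type replicate 1 and -0.17 without wild-type replicate 2. *Cbx3* has 8 named processed pseudogenes, which together took 63 to 111 counts per library, and since the authors kept unique alignments only, reads shared with them would be lost.

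*Daxx* encodes the H3.3 chaperone that works with ATRX. It lies on chromosome 17 (33909414 to 33915590, plus strand) and had counts of 183 and 379 in wild-type, and of 533 and 487 in *Zfp57*-/- libraries, the lowest counts of the 9 genes. Normalised counts were 277 ± 90.0 in the wild-type and 504 ± 49.5 in *Zfp57*-/- cells (mean ± SD, n = 2), without overlap, although the wild-type libraries differed from each other by more than for any other of the 9 genes. The log2 change was 0.86 ± 0.248 (SE; adjusted p = 0.0291, edgeR). It was 0.54 without wild-type replicate 1 and 1.24 without wild-type replicate 2. Without *Zfp57*-/- replicate 1 or replicate 2 it was 0.76 and 0.96 and did not pass. Nor did it pass with *Actb* as the scale (0.29, adjusted p = 0.747, edgeR), where it lay 0.97 above the median of all genes.

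*Hells* encodes an SNF2-family nucleosome remodeller, also known as LSH, that is abundant in dividing cells. On chromosome 19 (38930915 to 38971051, plus strand), it had counts of 1056 and 1508 in wild-type, and of 2496 and 2621 in *Zfp57*-/- libraries. Normalised counts of 1231 and 1355 against 2522 and 2522 did not overlap, and the change was the largest of the 9 genes. Its log2 change of 0.96 ± 0.185 (SE; adjusted p = 0.00414, edgeR), or 1.95-fold, was the single one of the 9 below an adjusted p of 0.01. Without *Zfp57*-/- replicate 1 or 2 the change was 0.97 in both cases and did not pass (adjusted p = 0.0681 and 0.0659), and with *Actb* as the scale it was 0.30 (adjusted p = 0.749). On the *Actb* scale *Hells* lay 0.98 above the median of all genes. Among the proliferation markers, *Mcm5* (log2 change 1.06), *Ccnb1* (0.79), *Mcm2* (0.68) and *Cdk1* (0.67) rose in the same libraries. The others, *Mki67* (-0.48, adjusted p = 0.0804), *Top2a* (0.02) and *Pcna* (0.42), did not pass edgeR's test. The part of proliferation in the change of *Hells* was not tested.

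*Smchd1* encodes a non-canonical SMC protein with a hinge and an ATPase domain. The gene, on chromosome 17 (71344489 to 71475343, minus strand), had counts of 2293 and 2566 in wild-type, and of 2267 and 2221 in *Zfp57*-/- libraries. Normalised counts were 2673 and 2306 against 2290 and 2137, so that the groups did not overlap by a narrow margin. The log2 change was -0.17 ± 0.188 (SE; adjusted p = 0.545, edgeR). Its exon length of 19982 bases was the longest of the 9 genes, and with a correction for gene length the change was 0.37 (adjusted p = 0.148). The same-strand gene models Gm37639, Gm38220 and Gm4707 overlap *Smchd1* and had 15 to 60 counts per library.

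Levels of the 9 genes were compared per exon length, as TPM. In wild-type cells *Trim28* was highest with 358 and 471 TPM, followed by *Cbx5* with 287 and 352, *Cbx1* with 98.6 and 135, and *Zfp445* with 93.3 and 74.0. Below them came *Cbx3* with a mean of 63.3, *Hells* with 60.1, *Setdb1* with 56.1, *Smchd1* with 41.8 and *Daxx* with 29.3 TPM. In this order the ranges over replicates overlapped between *Cbx3* and *Hells* only. In *Zfp57*-/- cells *Trim28* reached 671 and 616 TPM and *Cbx5* 206 and 209, and *Hells* followed *Cbx1*, with means of 97.1 and 116 TPM. *Setdb1* (53.6) and *Zfp445* (53.4) overlapped there, as did *Daxx* (44.3) and *Cbx3* (44.1), while *Smchd1* was last with 30.7 TPM. The direction between genotypes can depend on the scale. *Setdb1* and, by a narrow margin, *Cbx1* were lower in *Zfp57*-/- cells in mean TPM and higher in mean normalised counts.

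The shares of the 3 HP1 transcripts in their sum were compared as well. *Cbx5* made up 64.2 and 63.7% of the summed HP1 TPM in the wild-type and 57.1 and 55.9% in *Zfp57*-/- cells, while *Cbx1* made up 22.1 and 24.5% against 30.6 and 32.4%. The share of *Cbx3* was 13.7 and 11.8% against 12.3 and 11.7% and overlapped between the genotypes. The shares of *Cbx5* and *Cbx1* did not overlap and differed by -7.46 and 8.23 percentage points between the means, each with an exact two-sided permutation p of 0.333, the smallest possible here. Summed HP1 was 447 and 552 TPM in the wild-type and 361 and 374 in *Zfp57*-/- cells. Mean TPM in wild-type against *Zfp57*-/- cells was 117 and 116 for *Cbx1*, 319 and 208 for *Cbx5*, and 63.3 and 44.1 for *Cbx3*. The level of *Trim28* relative to summed HP1 was 0.802 and 0.853 in the wild-type and 1.86 and 1.65 in *Zfp57*-/- cells, 2.12 times as high on average. Counted without exon length, *Cbx5* made up 76.6% in each wild-type library and 71.6 and 70.7% in the *Zfp57*-/- libraries.

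The allele-specific counts were then used to ask whether the genes were expressed from both parental alleles and which allele changed. The allelic ratio is the maternal share of the allelic reads, with a median of 0.499 in the wild-type and 0.489 in *Zfp57*-/- cells over 10091 autosomal genes. In wild-type cells 1 of the 9 genes, *Daxx*, had a bias by edgeR (23.6% of the 10977 genes tested did, 14.3% towards the maternal allele). In *Zfp57*-/- cells 0 of the 9 did (21.8% of all genes), with 1, *Cbx5*, at an unadjusted p under 0.05 and 0 by DESeq2. The ratio differed between genotypes for 1 of 9, again *Daxx* (14.5% of all genes, 10.3% with a lower maternal share in *Zfp57*-/- cells), with *Zfp445* and *Cbx5* also at an unadjusted p under 0.05. Without wild-type replicate 1 *Cbx5* passed as well, which made 2 genes, and without *Zfp57*-/- replicate 2 *Cbx1* showed a bias in *Zfp57*-/- cells.

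**Figure D2:**
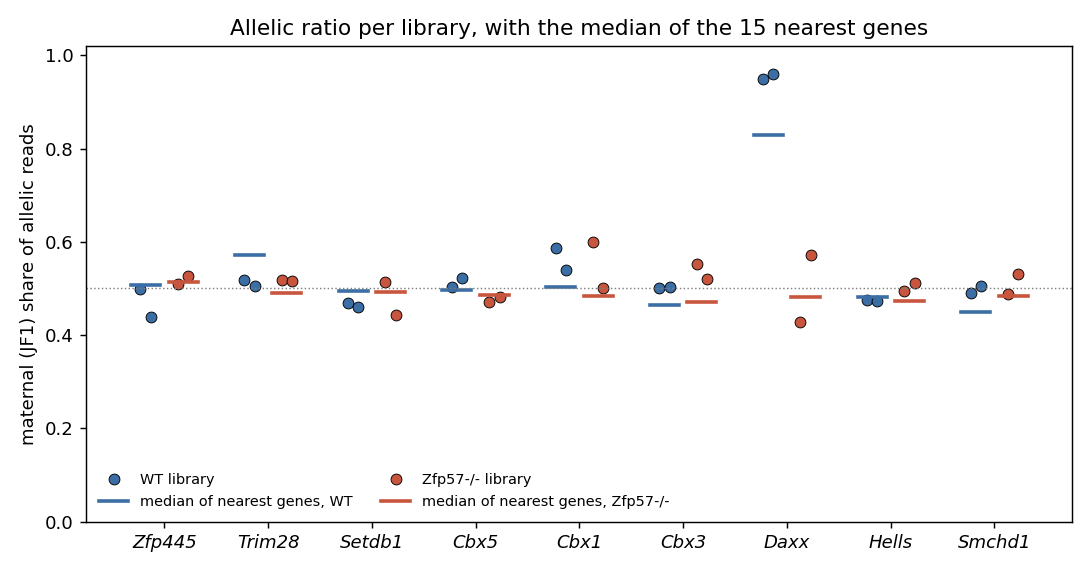
Maternal (JF1) share of allelic reads (vertical axis) for each gene; points are libraries, short lines the median of the 15 nearest genes in each genotype, and the dotted line marks 0.5. The wild-type libraries of *Daxx* stand at 0.95 and 0.96, above all other points, and its *Zfp57*-/- libraries at 0.429 and 0.571.

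The other 8 genes were expressed from both alleles in both genotypes, with mean ratios from 0.464 (*Setdb1*) to 0.564 (*Cbx1*) in wild-type and from 0.476 (*Cbx5*) to 0.550 (*Cbx1*) in *Zfp57*-/- cells. The KAP1 gene is the best covered example of a rise on both alleles. *Trim28* had 667 maternal and 619 paternal reads in wild-type replicate 1, 1158 and 1130 in replicate 2, and 1823 and 1689 and then 1669 and 1562 in the *Zfp57*-/- replicates. Its pooled ratio was 0.511 in wild-type (95% Wilson interval 0.494 to 0.527, counting error only) and 0.518 in *Zfp57*-/- cells (0.506 to 0.530). The maternal allele rose by a log2 change of 0.92 ± 0.222 (SE; adjusted p = 0.0101) and the paternal allele by 0.88 ± 0.222 (SE; adjusted p = 0.0107, both edgeR). *Hells* likewise rose on both, by 1.04 ± 0.171 on the maternal and 0.87 ± 0.170 on the paternal allele (SE; adjusted p = 0.00117 and 0.00257, edgeR), with pooled ratios of 0.474 and 0.504. Maternal alleles were called for 2 of the 9 genes (29.3% of all genes) and paternal alleles for 3 (32.6%), all as higher. The *Trim28* and *Hells* calls on either allele did not pass without *Zfp57*-/- replicate 1 or without replicate 2, with adjusted p from 0.0543 to 0.196 (edgeR).

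*Daxx* was the exception. It had 19 maternal reads and 1 paternal read in wild-type replicate 1, and 24 and 1 in replicate 2. In the *Zfp57*-/- replicates it had 18 maternal and 24 paternal reads, then 20 and 15. Maternal reads were thus present in all 4 libraries, while paternal reads were nearly absent in the wild-type libraries. The pooled ratio was 0.956 in wild-type (95% Wilson interval 0.852 to 0.988) and 0.494 in *Zfp57*-/- cells (0.385 to 0.603). The bias in wild-type cells was 4.27 ± 0.758 on the log2 scale (SE; adjusted p = 2.67e-06), and its difference between genotypes was -4.29 ± 0.921 (SE; adjusted p = 0.000149, both edgeR). Scaled to depth, paternal reads were 18.9 times as many in *Zfp57*-/- cells, with an exact interval of 4.90 to 162 that covers counting error only, and maternal reads 0.858 times (0.540 to 1.36). In the fit of each allele, the maternal change was -0.22 ± 0.438 (SE; adjusted p = 0.739) and the paternal change 4.09 ± 0.684 (SE; adjusted p = 0.000975, both edgeR), the latter resting on 2 wild-type reads. Allelic reads were 6.60 to 10.9% of the *Daxx* reads in a library, the lowest share of the 9 genes. All these *Daxx* allele calls passed without each library in turn.

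**Figure D3:**
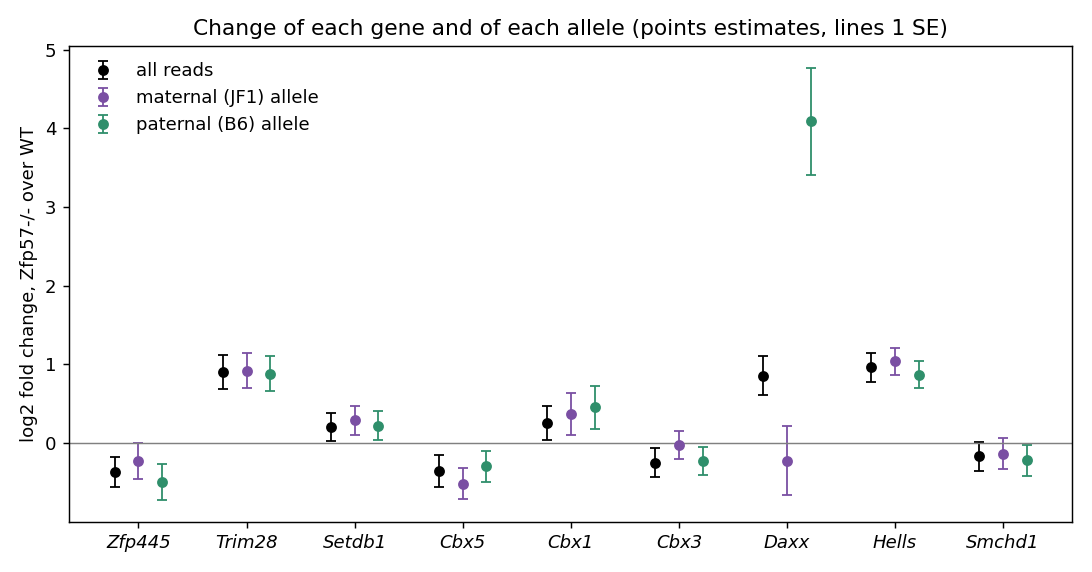
Log2 fold change in *Zfp57*-/- over wild-type cells (vertical axis) of each gene from all reads (black), maternal reads (purple) and paternal reads (green); points are edgeR estimates and lines 1 SE. *Trim28* and *Hells* sit at 0.87 to 1.04 for all kinds of reads, and *Daxx* has -0.22 for the maternal and 4.09 for the paternal allele.

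The ratio of most genes next to *Daxx* moved with it. The 15 nearest autosomal genes with enough reads, up to 110 kb away, had a median ratio of 0.829 in the wild-type and 0.481 in *Zfp57*-/- cells, and 6 of them were at 0.9 or more in wild-type cells against 0 in *Zfp57*-/- cells. Of these 15, 11 passed the edgeR test of a lower maternal share in *Zfp57*-/- cells, beside 10.3% of all genes tested. The 11 include *H2-K1*, described below. On one side, *Kifc1*, at -29.3 kb from *Daxx*, had a ratio of 0.994 against 0.432, while *Cd320*, at -66.1 kb, had 0.475 and 0.473. On the other side, *Zbtb22* at 5.11 kb had 0.991 against 0.481, and *Tapbp* at 10.1 kb had 0.818 against 0.618. *Rps18*, a ribosomal protein gene 41.5 kb away that is covered by 2756 wild-type and 4266 *Zfp57*-/- allelic reads, had 0.998 against 0.4996. *H2-K1*, a histocompatibility gene 85.7 kb away, was paternal in both genotypes, with 0.0953 and 0.00867. These 6 genes and *Ring1* below were chosen after their values were seen. Over chromosome 17 as a whole the median of 475 genes was 0.516 and 0.486, and *Zfp57* itself lies 3093 kb from *Daxx*. Some genes beyond the 15 neighbours, also chosen after their values were seen, had similar ratios. *Bag6* at 1229 kb had 0.967 against 0.514, *Tubb5* at 1924 kb 0.999 against 0.465, and *Ppp1r11* at 3038 kb 0.974 against 0.502. Other genes among them were near 0.5 in both genotypes, such as *Csnk2b* (0.547 and 0.498) and *Abcf1* (0.491 and 0.467). The shift of the *Daxx* ratio therefore cannot be told apart from a shift of its stretch of the chromosome.

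**Figure D4:**
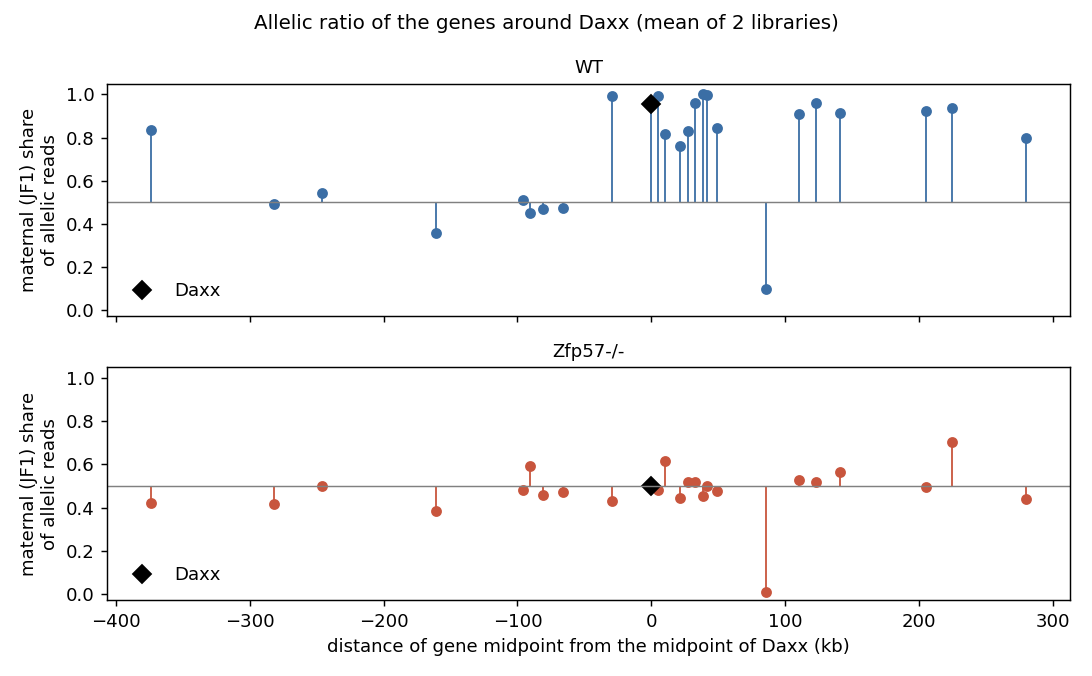
Maternal (JF1) share of allelic reads, mean of 2 libraries (vertical axes), of genes by distance of their midpoint from that of *Daxx* in kb (horizontal axis), in wild-type (top) and *Zfp57*-/- cells (bottom); the diamond is *Daxx* and the line marks 0.5. In wild-type cells *Daxx*, *Kifc1*, *Zbtb22* and *Rps18* stand at 0.955 to 0.998, and in *Zfp57*-/- cells at 0.432 to 0.5.

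Total levels near *Daxx* did not all move with the ratio. Of the 15 neighbours, 6 were higher and 1 lower in all reads, with a median log2 change of 0.66. *Kifc1* (1.23) and *Rps18* (1.28) were higher (adjusted p = 0.00138 and 0.00129, edgeR), *Zbtb22* had -0.53 (adjusted p = 0.102) and *Ring1*, 110 kb away, fell by 0.89 on the log2 scale (adjusted p = 0.0176, edgeR). For comparison, the 15 neighbours of *Trim28* had median ratios of 0.573 and 0.491 with a median log2 change of 0.15, and those of *Hells* 0.482 and 0.472. Among the neighbours of *Trim28* 2 were higher and 4 lower in all reads. Among those of *Hells* 8 were higher and 3 lower, with a median log2 change of 0.85. The part of the neighbourhood in the changes of *Trim28* and *Hells* was not tested.

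Genes that work with these factors were grouped in 11 lists of 65 genes, of which 64 were tested. Of these 8 were higher, 9 lower, and the median log2 change was -0.01, so that the share called, 26.6%, was near the 27.6% of all genes tested. Calls in both directions are seen in the plot of changes by gene group.

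**Figure D5:**
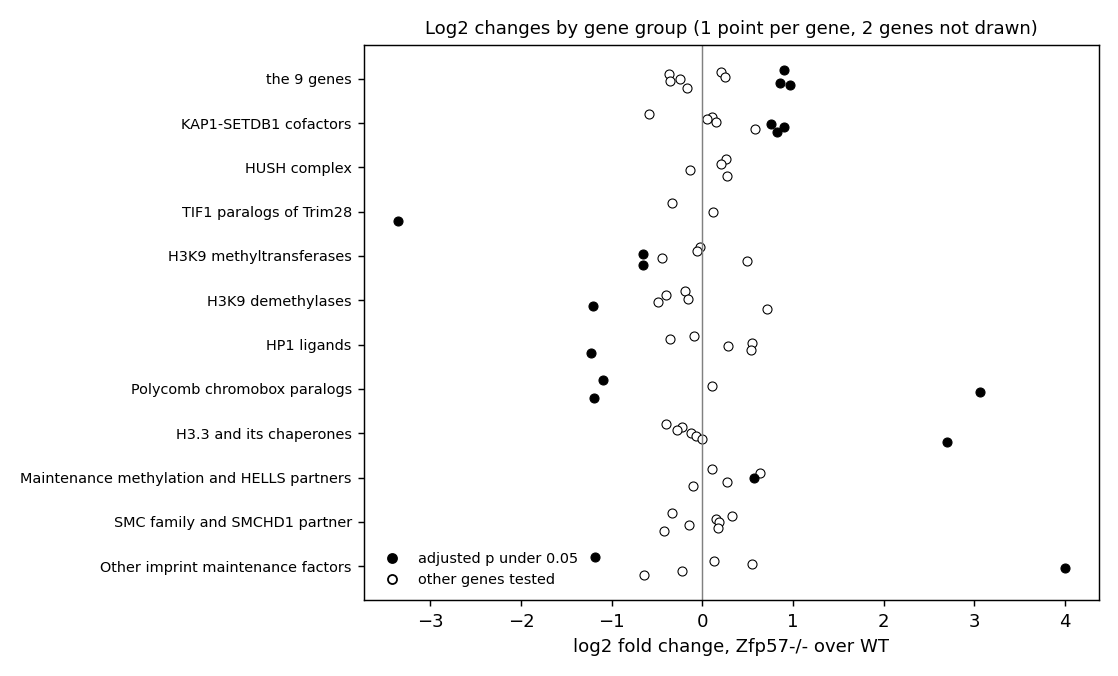
Log2 fold change in *Zfp57*-/- over wild-type cells (horizontal axis) of the 9 genes and of the 11 lists (rows), 1 point per gene, filled where the adjusted p (edgeR) was under 0.05; *Dppa3*, with 0 counts in wild-type cells, and 1 gene not reported here are not drawn. The filled points of the cofactors of KAP1 and SETDB1 lie at 0.75 to 0.89, and those of the Polycomb paralogs drawn at -1.20 to 3.06.

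Among 8 cofactors of KAP1 and SETDB1, 3 rose and 0 fell (median log2 change 0.37), with 1, *Atf7ip*, lower at an unadjusted p under 0.05 and 0 lower by DESeq2. *Resf1*, a gene needed for silencing of endogenous retroviruses, had counts of 820 and 973 in wild-type, and of 1748 and 1701 in *Zfp57*-/- cells (log2 change 0.89, adjusted p = 0.00644). *Morc3*, an ATPase of the MORC family, rose by 0.75 (adjusted p = 0.0158) and *Chaf1b*, a subunit of the CAF-1 chaperone, by 0.82 (adjusted p = 0.0221, edgeR throughout). *Chaf1a*, the partner of *Chaf1b*, had 0.58 and did not pass (adjusted p = 0.0553). The HUSH complex silences transposons and recruits SETDB1. Of its 4 genes 0 passed (median 0.24), also 0 at an unadjusted p under 0.05 and 0 by DESeq2, with *Mphosph8*, *Tasor*, *Morc2a* and *Pphln1* between -0.13 and 0.27. Of the 3 TIF1 paralogs of *Trim28*, *Trim66* fell by 3.36 on the log2 scale, from 147 and 140 counts to 18 and 11 (adjusted p = 0.000267), and *Trim24* (-0.33) and *Trim33* (0.12) did not pass.

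Among other writers and erasers of H3K9 methylation the calls were in the lower direction. Of 6 further genes, for methyltransferases and the cofactor WIZ, 2 fell and 0 rose (median -0.25). At an unadjusted p under 0.05 and by DESeq2 0 were higher as well. *Ehmt1*, which encodes GLP, had counts of 1556 and 1961 in wild-type, and of 1131 and 1166 in *Zfp57*-/- cells (-0.66, adjusted p = 0.0240), and its cofactor gene *Wiz* had -0.65 (adjusted p = 0.0304, edgeR). *Ehmt2*, which encodes G9a, had -0.45 (adjusted p = 0.128) and *Setdb2* 0.49 (adjusted p = 0.134). Of 7 demethylase genes 6 were tested, since *Kdm4d* had at most 4 counts in a library. *Kdm4b* fell by 1.21 (adjusted p = 0.00378), while *Kdm4c* (0.71, adjusted p = 0.0539) and *Kdm4a* (-0.49, adjusted p = 0.103) did not pass edgeR's test. DESeq2 called 1 of the 6 as higher and 1 as lower.

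Of 6 genes for proteins that bind HP1, *Rb1*, the retinoblastoma gene, fell by 1.22 (737 and 831 against 336 and 361 counts, adjusted p = 0.00134), and 5 did not pass (median 0.10). Among these were *Lbr*, the lamin B receptor, with 0.55 (adjusted p = 0.0674), and *Sgo1*, which protects centromeric cohesion, with 0.53 (adjusted p = 0.101, edgeR). Among Polycomb chromobox paralogs, which bind methylated H3K27, changes in both directions were found. *Cbx8* fell by 1.20 (adjusted p = 0.0122) and *Cbx2* by 1.10 (adjusted p = 0.00620), and *Cbx6* had 0.11 (adjusted p = 0.742, edgeR). *Cbx7*, the paralog that prevails in embryonic stem cells, rose by 3.06, from 73 and 114 counts to 850 and 743 (adjusted p = 1.48e-05, edgeR). The 3 HP1 genes lay between -0.35 and 0.25.

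Of 7 genes for H3.3 and its chaperones, *Pml* rose by 2.69, from 155 and 186 counts to 1174 and 1106 (adjusted p = 1.57e-05, edgeR), and encodes the scaffold of the nuclear bodies in which DAXX resides. *Atrx*, the partner of *Daxx*, had 6079 and 5430 counts against 4557 and 4653, a log2 change of -0.40 that did not pass (adjusted p = 0.208). *H3f3b* (-0.28) and *H3f3a* (-0.23), which encode H3.3, did not pass either, and 0 of the 7 fell (0 at an unadjusted p under 0.05 and by DESeq2). Among 5 genes of maintenance methylation, *Usp7*, a deubiquitinase that stabilises DNMT1 and UHRF1, rose by 0.57 (adjusted p = 0.0441, edgeR). *Uhrf1* itself had 0.64 (adjusted p = 0.0819), *Dnmt1* had 0.10, and *Cdca7*, which activates HELLS, had 0.28 (adjusted p = 0.381). Of the 7 genes of the SMC family and LRIF1, the partner of SMCHD1, 0 passed (median 0.16), also 0 at an unadjusted p under 0.05 and 0 by DESeq2, from *Lrif1* (-0.42) and *Smc1a* (-0.33) to *Smc4* (0.18) and *Smc2* (0.32).

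The last list held other factors that act on imprints. Beside *Zfp57*, which fell, *Dppa3* and *Zfp42* rose and 4 did not pass (median 0.12). *Dppa3*, which protects maternal methylation in the early embryo, had counts of 0 and 0 in wild-type, and of 171 and 145 in *Zfp57*-/- cells, at least 44.7-fold higher against a floor of 3 counts per library. *Zfp42*, which encodes REX1 and also stands in the list of pluripotency markers, had 6 and 33 against 327 and 298 counts (adjusted p = 0.00019, edgeR). *Arid4b* had -0.64 and did not pass (adjusted p = 0.0678).

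The genes whose pattern over the 4 libraries was closest to each of the 9 were found by the distance of log2 normalised counts, each gene centred on its own mean. These were *Ndufb3* for *Trim28*, *Esf1* for *Setdb1*, *Dzip1* for *Zfp445*, *Ints5* for *Cbx1*, Gm45133 for *Cbx3*, *Nudt21* for *Cbx5*, *Polr2f* for *Daxx*, *Zrsr1* for *Hells* and *Exoc2* for *Smchd1*. The distances lay between 0.0113 (*Esf1*) and 0.0452 (*Polr2f*) on the log2 scale, and with 4 libraries such a likeness is a description only. Gm45133 had 21 to 31 counts per library.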

How the data were processed

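RNA from 2 wild-type and 2 *Zfp57*-/- day 12 JB1 libraries (stranded total RNA, paired reads of 125 bases) was analysed from the deposited tables. According to the study's methods and the file headers, the authors trimmed reads with Trimmomatic 0.36, aligned them to mm10 (GRCm38) with STAR 2.5.4a keeping unique alignments, and deposited raw fragment counts per GENCODE vM20 gene made with featureCounts (Subread 1.6.0) on the matching strand. For the allelic counts the authors aligned reads to a genome masked at JF1 and B6 variants and split them with SNPsplit. Neither table was normalised.

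Genotypes were compared with edgeR 4.0.16 for genes whose counts summed to more than 8 (robust quasi-likelihood test, TMM, Benjamini-Hochberg adjusted p under 0.05, in R 4.3.3). The study used DESeq2 and genotype as the single term. Allelic bias was tested in an edgeR fit of both alleles of every library, in which each library had its own term and each genotype its own allele effect, for autosomal genes with at least 10 normalised allelic counts in both wild-type replicates. The level of each allele was tested with the bulk library sizes. The fits were tested on simulated data with the same spread in both genotypes, unlike the replicates here. In these data the bulk edgeR fit recovered 61% of log2 changes of 1 and 98% of changes of 2. TPM used the exon lengths in the deposited table. Neighbours are the 15 nearest autosomal genes that had 10 or more allelic reads in all libraries. Wilson and exact intervals are at 95% and cover counting error only. Gene symbols came from GENCODE vM21 on the same build, matched by gene identifier (54721 of 55602). Promoters are RefSeq windows.

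The 9 genes and all lists were chosen with earlier results of these data known. Of the listed genes, 1 is not reported here by itself. Named beside the 9 genes are up to 4 genes per list with the smallest adjusted p, the marker genes, *Zfp57*, and the closest pattern per gene. Same-numbered replicates deviated together at a correlation of 0.165 over 13684 genes, and no source pairs them, so that the main comparison has no replicate term. Alternatives were DESeq2 1.42.0, other scalings (DESeq2 size factors, upper quartile, *Actb*), other count minimums, a replicate block, a gene-length correction, a proportion test on pooled reads, a threshold of 0.01, and each library left out in turn.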

Additional observations from a re-analysis of the deposited data

Results flagged for a closer look

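The allelic ratio of *Daxx* differed between genotypes by -4.29 on the log2 scale of maternal over paternal reads, by edgeR's test of the difference itself. It drew attention because the same contrast of alleles gave a strong maternal bias in wild-type cells and none that passed the test in *Zfp57*-/- cells. The ratios of 11 of its 15 nearest genes differed in the same direction, beside 10.3% of all genes tested. The part of the chromosome segment in the value was not tested.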

How the results depend on the processing

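The count of 3 genes that rose, *Trim28*, *Daxx* and *Hells*, was the same with DESeq2, DESeq2 size factors, upper-quartile scaling, other count minimums, the gene-length correction and the replicate block (3 genes). It was 1 at an adjusted p under 0.01 and 0 with *Actb* as the scale, and ranged from 0 without either *Zfp57*-/- replicate to 5 without either wild-type replicate. The direction of *Setdb1* (-0.47) and *Cbx1* (-0.35) reversed with *Actb*, that of *Smchd1* (0.37) with the gene-length correction, and *Cbx1* ranged from -0.013 to 0.54 when each library was left out. Of the genes in the lists, 17 passed, against 10 at an adjusted p under 0.01 and 8 to 39 without 1 library (25 with the replicate block). In wild-type cells *Daxx* was the biased gene in every fit, and the proportion test on pooled reads called 3 genes, with *Zfp445* and *Cbx5*. In *Zfp57*-/- cells that test called 2, *Trim28* and *Cbx5*, and the range without 1 library was 0 to 1. Genes with a different ratio numbered 1 to 2 and alleles with a different level 1 to 8 without 1 library, against 5. The share of *Cbx5* in HP1 without exon length was 76.6% in wild-type cells and 71.1% in *Zfp57*-/- cells. The cause of these changes was not tested. With 1 library left out, the lone sample was assumed to vary like the other genotype. With 2 libraries per genotype, and 20 to 42 allelic reads of *Daxx* per library, small changes were not detectable.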
